A study of Mus musculus with 6 samples.

Results

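Alpha and beta tubulins are the proteins from which microtubules are built, and their messenger RNAs were examined here in mouse liver. The genes were the 10 rows of the count table with the symbols Tuba1a, Tuba1b, Tuba1c, Tuba4a, Tubb2a, Tubb2b, Tubb3, Tubb4b, Tubb5 and Tubb6, of 26608 gene symbols in all. These genes were chosen by name with their fold changes and calls between LiKM and LiK in the same 6 livers in view, so their levels in LiKM and LiK livers are given as a description, without a test. Total RNA came from 3 livers of the genotype LiKM and 3 of the genotype LiK, taken at an age of 6 weeks. The labels give the names of the genotypes and no alleles. From knowledge of the study outside the labels, LiKM hepatocytes lack Mdm2, the ubiquitin ligase that keeps the tumour suppressor p53 low, and LiK hepatocytes do not.

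An alpha and a beta tubulin join into a dimer, and dimers add end to end to form the hollow filaments of the microtubule. Each class is encoded by several genes, called isotypes, whose proteins are very alike and mix in the same filament, and which differ between tissues. Cells sense the pool of free dimers and degrade tubulin messenger RNA during translation when that pool grows, a feedback called autoregulation. In hepatocytes, microtubules carry secretory vesicles and canalicular membrane proteins, and every dividing cell rebuilds them into a mitotic spindle.

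The libraries held 20762712, 19909993 and 19981932 counts in LiKM and 23007280, 20778717 and 24874343 counts in LiK. The 10 tubulin genes together took 0.0533%, 0.0627% and 0.0895% of the counts in LiKM 1, 2 and 3, and 0.0273%, 0.0310% and 0.0299% in LiK 1, 2 and 3. Mdm2 had 2589, 2744 and 1255 counts in LiKM and 597, 577 and 697 in LiK. Counts summed over a whole gene do not show whether part of it is removed, so this is no check of the deletion. The hepatocyte markers were abundant in every library, with albumin (Alb) at 97163 CPM in LiKM and 90851 CPM in LiK. The 11 such genes summed to 171320, 152015 and 167976 CPM in LiKM and 177362, 160507 and 167427 CPM in LiK. Their log2 fold change, LiKM over LiK, was above 0 in 3 of the 11, with a median of -0.22. Of the 11, edgeR and DESeq2 each called 0. At an unadjusted p under 0.05 in edgeR was 1, lower in LiKM, beside 22.4% of all tested genes in either direction. Levels are given as CPM, which are counts put on the same library size with TMM factors. A gene was called where the Benjamini-Hochberg adjusted p of edgeR's quasi-likelihood test, over 13537 tested genes, was under 0.05, which held for 692 genes higher and 110 lower in LiKM.

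How far the reads of 1 tubulin can be told from those of another sets what the counts mean. In the GENCODE M21 transcripts, 73.8% of the 50-base windows of Tuba1b, 72.9% of those of Tuba1a and 61.0% of those of Tuba1c also occurred in a transcript of another gene. The coding sequences of these 3 genes were 97.6% to 98.4% identical, and each was 85.3% to 85.6% identical to Tuba4a, which shared 1.11% of its windows. Tubb2a shared 49.6% of its 50-base windows, mostly with its neighbour Tubb2b, to which its coding sequence was 96.5% identical. Tubb4b shared 50.9%, largely with its pseudogenes Tubb4b-ps1 and Tubb4b-ps2. Tubb5 shared 0.115%, and Tubb3 and Tubb6 shared 0. With windows of 100 bases the shared part was 29.2% for Tubb4b, 36.9% for Tubb2a and 69.5% for Tuba1b. The treatment of reads that match several genes is not given in the sources used here, so the counts of Tuba1a, Tuba1b, Tuba1c, Tubb2a, Tubb2b and Tubb4b are uncertain to that extent, while those of Tuba4a, Tubb3, Tubb5 and Tubb6 are nearly free of it.

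**Figure D1:**
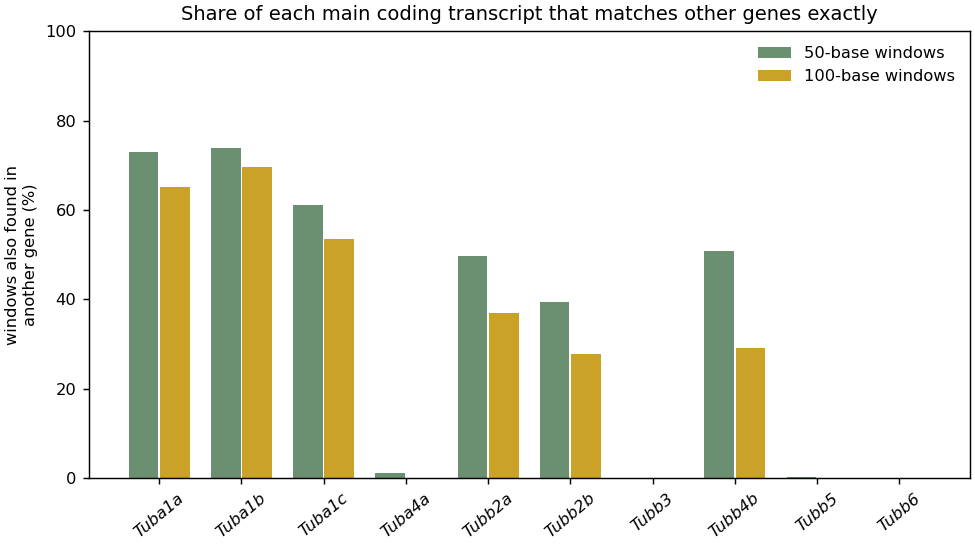
Percent of each tubulin gene's 50-base and 100-base transcript windows that also occur in a transcript of another gene, in GENCODE M21. Tuba1a, Tuba1b and Tuba1c share the most, at 61.0% to 73.8% of 50-base windows, and Tubb3 and Tubb6 share 0.

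Levels per kilobase used the whole transcript length, windows shared with other genes included. The order of the genes is therefore uncertain for those with many shared windows, above all Tuba1a, Tuba1b and Tuba1c. On this scale Tubb4b was the highest tubulin messenger RNA in these livers. It stood at 180.4 ± 2.63 CPM per kilobase in LiKM and 61.1 ± 6.79 in LiK (SD, n = 3 each, as for every mean below). In LiKM, Tubb2a followed at 75.6 ± 82.8 and Tuba4a at 52.9 ± 12.6, and the values of these 2 genes overlapped between livers. In LiK, Tuba4a came next at 51.2 ± 0.957 and Tubb2a after it at 18.3 ± 2.50, with no overlap. Tubb6 came next in each genotype, at 21.97 ± 5.41 in LiKM and 7.29 ± 1.01 in LiK. Tubb5 and Tuba1c stood next to each other, at 9.81 ± 1.59 and 8.78 ± 1.5997 in LiKM and at 4.54 ± 0.432 and 5.13 ± 0.785 in LiK, and their values overlapped in each genotype. Tuba1b and Tuba1a stood below them, at 2.75 ± 0.104 and 0.855 ± 0.337 in LiKM and 1.0006 ± 0.227 and 0.383 ± 0.0797 in LiK. Tubb2b and Tubb3, known best from neurons, ended the order and overlapped, with 0.269 ± 0.266 and 0.109 ± 0.102 in LiKM and 0.0622 ± 0.0345 and 0.0392 ± 0.0347 in LiK.

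Of the 10 genes, 8 passed the filter on low counts, and Tubb2b and Tubb3 did not. Tubb4b, Tubb6, Tubb5 and Tuba1b were called higher in LiKM, beside 5.11% of all tested genes called higher, 0.813% called lower and 5.92% called in either direction. All 8 fitted log2 fold changes were above 0, so 0 could be called lower. In 6 of the 8 every LiKM liver lay above every LiK liver, beside 17.8% of all tested genes. The median log2 fold change of the 8 was 1.30, and over all tested genes it was -0.0034. Nothing is read from these counts, since the genes were chosen in this comparison. Leaving out LiKM 2, LiK 1 or LiK 2 left 1 tubulin called, which was Tubb4b, and leaving out any of the others left 4 called. In RNA from whole liver, more or fewer cells of a type and more or less RNA per cell cannot be told apart.

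**Figure D2:**
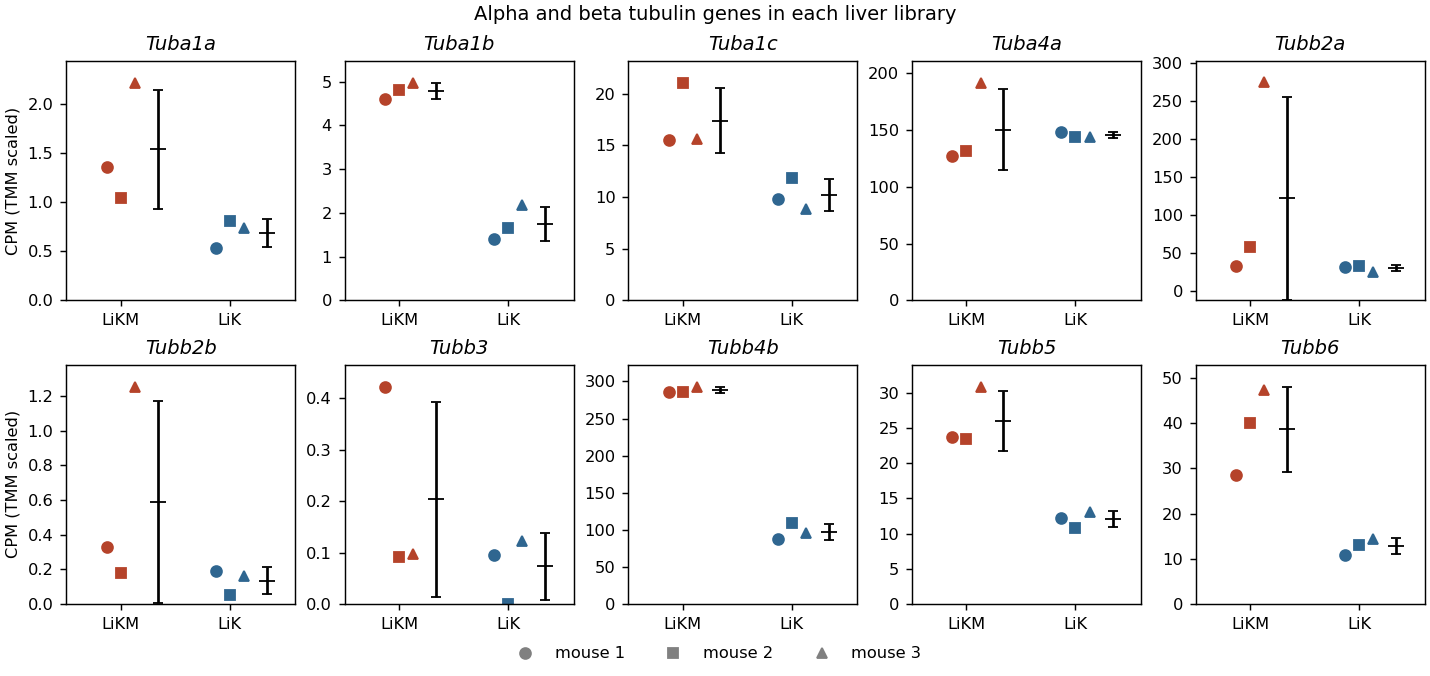
Level of each tubulin gene in each liver, in CPM on a linear axis of its own for each gene, with LiKM livers left of LiK livers and the mean and SD beside each group. Tubb4b holds close together in LiKM at 286 to 293 CPM, and Tubb2a spreads between 32.5 and 275 CPM there.

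Tubb4b, a beta tubulin made in most tissues and also found in the axonemes of cilia, had 286, 286 and 293 CPM in the 3 LiKM livers and 87.6, 109 and 96.2 CPM in the 3 LiK livers. Every LiKM liver lay above every LiK liver. The means were 288 ± 4.21 CPM in LiKM and 97.7 ± 10.9 CPM in LiK, a ratio of 2.95 and a fitted log2 fold change of 1.56 (SE 0.12). The coefficient of variation was 1.46% in LiKM and 11.1% in LiK. By the size of the log2 fold change over its SE, Tubb4b ranked 6 of the 13537 tested genes. It was called higher in all 6 fits that left out 1 liver, with log2 fold changes between 1.49 and 1.65. The tubulins were chosen with this comparison in view, so the rank and these calls are a description only.

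The promoters of Tubb4b and Tubb5, called higher, and of Tubb2a and Tuba4a, not called, are shown because they span the range of CCAAT counts among the tubulins, as seen after the search. These 4 do not stand for all matched tubulins, and the counts of the others are given after the sequences. Whether CCAAT counts go with the calls was not tested. Each line gives the 250 bases before the gene start from RefSeq on GRCm38.p6, written 5′ to 3′ on the gene's strand, with motif matches in capitals. The motifs searched were CCAAT on both strands (ATTGG on the other), the site of the factor NF-Y, TTTGAA and TTCGAA on both strands, core letters of the elements bound by the DREAM and MuvB complexes at cell cycle genes, and TATAAA on the gene's strand. All matches in these 4 windows lie on the printed strand.
Tubb4b: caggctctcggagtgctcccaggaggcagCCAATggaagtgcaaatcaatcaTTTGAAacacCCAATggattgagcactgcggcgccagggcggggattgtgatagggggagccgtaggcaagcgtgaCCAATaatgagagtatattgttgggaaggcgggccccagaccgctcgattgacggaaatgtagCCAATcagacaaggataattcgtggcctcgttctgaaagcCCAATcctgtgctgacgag
Tubb5: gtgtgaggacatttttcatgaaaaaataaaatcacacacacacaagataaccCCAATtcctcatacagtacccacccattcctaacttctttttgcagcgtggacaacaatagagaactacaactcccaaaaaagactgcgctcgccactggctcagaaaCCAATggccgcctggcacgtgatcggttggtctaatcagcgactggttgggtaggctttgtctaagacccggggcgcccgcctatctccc
Tubb2a: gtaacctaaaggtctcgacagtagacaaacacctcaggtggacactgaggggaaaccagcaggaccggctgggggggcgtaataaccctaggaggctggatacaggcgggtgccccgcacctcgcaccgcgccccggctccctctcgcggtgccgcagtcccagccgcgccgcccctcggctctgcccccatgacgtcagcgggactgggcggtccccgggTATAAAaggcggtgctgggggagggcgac
Tuba4a: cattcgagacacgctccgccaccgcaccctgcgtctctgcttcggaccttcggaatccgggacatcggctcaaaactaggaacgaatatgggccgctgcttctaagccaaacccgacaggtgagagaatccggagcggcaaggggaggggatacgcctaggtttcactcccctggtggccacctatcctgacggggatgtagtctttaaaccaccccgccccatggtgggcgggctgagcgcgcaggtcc
The windows lie at chr2:25224703-25224952 for Tubb4b, chr17:35838302-35838551 for Tubb5, chr13:34078009-34078258 for Tubb2a and chr1:75219295-75219544 for Tuba4a, all on the minus strand.

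The Tubb4b window held 5 CCAAT matches, with their near ends 15, 55, 118, 184 and 217 bases before the start, and 1 TTTGAA match at 193 bases. Of 32851 mouse promoter windows of the same length, 33.8% held at least 1 CCAAT, 10.1% at least 2 and 0.213% at least 5. The Tubb5 window held 2 CCAAT matches. The Tubb2a window held no CCAAT and 1 TATAAA, 24 to 29 bases before the start, and the Tuba4a window held none of the motifs. TTTGAA was found in 16.0% of all windows, TTCGAA in 1.34% and TATAAA in 7.59%. Among the other matched tubulin genes, Tuba1b, called higher, had no CCAAT, Tuba1a and Tuba1c, not called, had 1 each, and Tubb3, not tested, had 1, and TTCGAA was in 0 of the 8 matched windows. Tubb2b and Tubb6 had no entry. A match of letters is a description and was not tied to the levels by a test.

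Tubb6, a beta tubulin known from regenerating muscle, had 28.5, 39.98 and 47.4 CPM in LiKM and 10.9, 13.1 and 14.4 CPM in LiK. The lowest LiKM liver stood well above the highest LiK liver. The means were 38.6 ± 9.51 CPM in LiKM and 12.8 ± 1.77 CPM in LiK, with a log2 fold change of 1.59 (SE 0.21). Tubb5, a beta tubulin made in most tissues, had 23.7, 23.4 and 30.9 CPM in LiKM and 12.2, 10.8 and 13.1 CPM in LiK. The groups did not overlap, and LiKM 3 was the highest liver for both genes. Tubb5 averaged 26.0 ± 4.22 CPM in LiKM and 12.03 ± 1.14 CPM in LiK, a log2 fold change of 1.11 (SE 0.15).

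Tubb2a, a beta tubulin abundant in brain and present in many tissues, had 32.5, 57.8 and 275 CPM in LiKM and 30.8, 32.7 and 24.95 CPM in LiK. LiKM 3 stood far above every other liver, and LiKM 1 lay within the values of LiK. The means were 122 ± 133 CPM in LiKM and 29.5 ± 4.02 CPM in LiK. The log2 fold change of 2.05 (SE 0.73) was the largest of the class and was not called, and without LiKM 3 it was 0.59. Tubb2b, its near copy, had 7, 4 and 26 counts in LiKM and 4, 1 and 4 counts in LiK, so LiKM 3 was the highest liver there too. Since these genes share long stretches, reads of 1 may have been counted for the other. Tubb3, the beta tubulin used as a marker of neurons, had 9, 2 and 2 counts in LiKM and 2, 0 and 3 counts in LiK, too few to compare. Of 17 neuron and Schwann cell markers, 5 were tested, of which edgeR called 0 and DESeq2 called 1 higher. At an unadjusted p under 0.05 in edgeR was 1. Of all tested genes, 22.4% were at such a p, and DESeq2 called 8.97% higher. Nefl, a neurofilament gene, had no count in any liver.

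**Figure D3:**
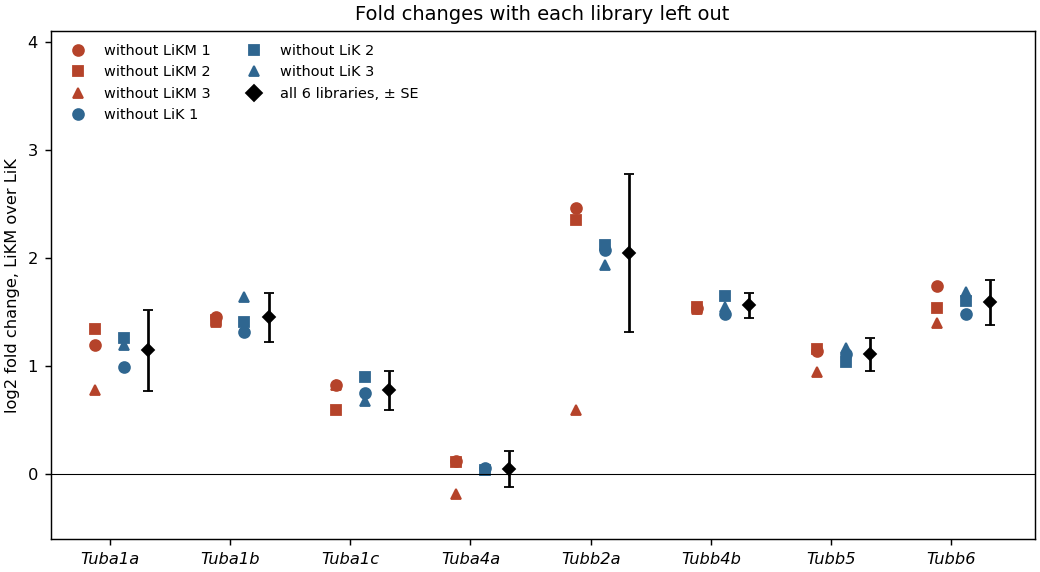
Log2 fold change of each tested tubulin, LiKM over LiK, with all 6 livers and with each liver left out in turn. Tubb4b stays between 1.49 and 1.65, while Tubb2a lies at 0.59 without LiKM 3 and reaches 2.47.

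Tuba4a was by count the main alpha tubulin of these livers and was the tested tubulin with the smallest fold change. It had 127, 132 and 192 CPM in LiKM and 149, 144 and 144 CPM in LiK. LiKM 1 and LiKM 2 lay below every LiK liver and LiKM 3 above them all. The means were 150.3 ± 35.8 CPM in LiKM and 145 ± 2.72 CPM in LiK, with a log2 fold change of 0.05 (SE 0.17). Its direction rested on LiKM 3, without which the value was -0.19.

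The 3 Tuba1 genes lie near one another on chromosome 15 and encode almost identical alpha tubulins. Tuba1b, made in nearly all cells, had 4.60, 4.81 and 4.97 CPM in LiKM and 1.40, 1.66 and 2.18 CPM in LiK, with means of 4.79 ± 0.181 CPM in LiKM and 1.74 ± 0.396 CPM in LiK. No LiKM liver overlapped a LiK liver, and the log2 fold change was 1.45 (SE 0.23). Tuba1c, the most abundant of the 3, had 15.5, 21.1 and 15.6 CPM in LiKM and 9.82, 11.9 and 8.82 CPM in LiK. The groups were separate. The log2 fold change was 0.77 (SE 0.18), short of a call. Tuba1a, the alpha tubulin of developing neurons, had 1.36, 1.04 and 2.22 CPM in LiKM and 0.530, 0.805 and 0.739 CPM in LiK. These were 23 to 46 counts in LiKM and 11 to 18 counts in LiK, with a log2 fold change of 1.15 (SE 0.37), short of a call.

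Summed over isotypes, beta tubulin messenger RNA stood higher in LiKM, while the alpha tubulin sums overlapped. The 6 beta genes summed to 371, 407 and 648 CPM in LiKM and 142, 166 and 149 CPM in LiK. Every LiKM liver was above every LiK liver, and the ratio of the means was 3.12. The 4 alpha genes summed to 149, 159 and 214 CPM in LiKM and 160, 158 and 156 CPM in LiK. LiKM 3 was above every LiK liver and LiKM 1 below them all, and the ratio of the means was 1.101 (0.973 without LiKM 3). The quotient of beta over alpha counts was 2.49, 2.57 and 3.02 in LiKM and 0.884, 1.05 and 0.957 in LiK. Per kilobase it was 4.35 ± 0.527 in LiKM and 1.58 ± 0.137 in LiK. The sums and the quotient depend on how reads matching several genes were treated, which is not given. With Tuba4a left out the alpha sum was 23.7 ± 2.83 CPM in LiKM and 12.6 ± 1.501 CPM in LiK, and with Tubb2a left out the beta sum was 354 ± 17.4 CPM in LiKM and 123 ± 11.1 CPM in LiK. These 2 subsets were chosen after their values were seen.

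**Figure D4:**
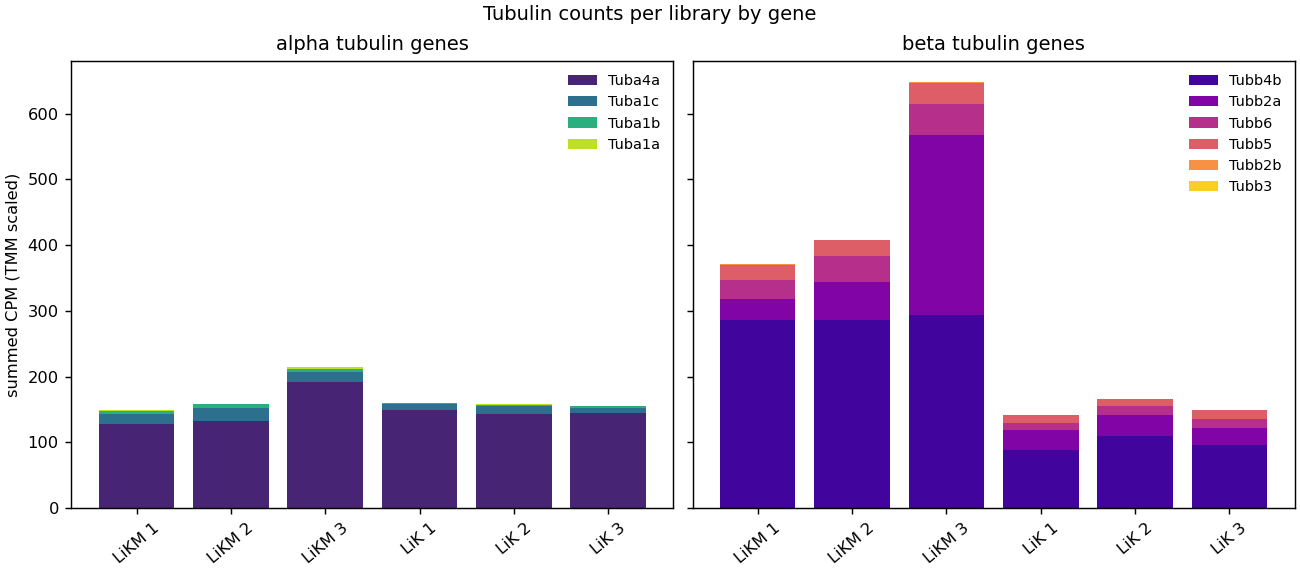
Summed CPM of the alpha and of the beta tubulin genes in each liver, stacked by isotype, with LiKM livers left of LiK livers. The beta sum is 371 to 648 CPM in LiKM and 142 to 166 CPM in LiK, and the Tubb2a segment is much taller in LiKM 3 than in any other liver.

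Within the beta class, Tubb4b gave 77.0%, 70.2% and 45.3% of the counts in LiKM and 61.8%, 65.8% and 64.6% in LiK. Tubb2a gave 8.76%, 14.2% and 42.5% in LiKM and 21.7%, 19.7% and 16.7% in LiK. LiKM 3 thus had nearly equal shares of the 2 isotypes, with exact (Clopper-Pearson) 95% intervals of 44.4% to 46.1% for Tubb4b and 41.6% to 43.3% for Tubb2a, which cover counting error only. Tubb6 gave 8.27% ± 1.35 in LiKM and 8.43% ± 1.096 in LiK, and Tubb5 gave 5.63% ± 0.814 in LiKM and 7.97% ± 1.25 in LiK. Within the alpha class, Tuba4a gave 85.6%, 83.1% and 89.4% of the counts in LiKM and 92.7%, 90.9% and 92.5% in LiK. The remainder was mostly Tuba1c, with 10.3% ± 2.99 in LiKM and 6.43% ± 0.961 in LiK, and Tuba1b gave 2.81% ± 0.431 in LiKM and 1.11% ± 0.267 in LiK. Tuba4a shared 1.11% of its 50-base windows with other genes, and the Tuba1 genes shared 61.0% to 73.8%. With the treatment of such reads not given, the isotype shares are uncertain beyond counting error.

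Genes whose pattern over the 6 livers was most like that of a tubulin were found by the root mean square difference of centred log2 CPM, among 6362 genes with a mean log2 CPM of at least 4. For the sum of all 10 tubulins these were Ikbke, Hn1l, Sirpa, Mmp14 and Hmox1, at differences of 0.127 to 0.162. For Tubb4b they were Plk2, Ces1g, Srxn1, Bax and Ctss, at 0.132 to 0.215. Plk2, a polo-like kinase, had 31.2, 31.2 and 29.8 CPM in LiKM and 10.4, 10.3 and 8.74 CPM in LiK. Ces1g is a carboxylesterase of lipid and drug metabolism, Srxn1 a sulfiredoxin of the response to oxidants, Bax a death effector at mitochondria and Ctss a lysosomal protease that is also in the macrophage list used here. For Tuba4a, Calr, a chaperone of the endoplasmic reticulum, was nearest at 0.0395. For Tubb2a, added after its values were seen, Chka was nearest at 0.217, and the next gene, Insig2, was at 0.548. Chka, the first kinase of phosphatidylcholine synthesis, had 30.2, 52.9 and 218 CPM in LiKM and 40.1, 33.5 and 24.1 CPM in LiK, so LiKM 3 was the highest liver there too.

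Of 10 other genes of the tubulin superfamily, 4 were tested and edgeR called 0 in either direction, where it called 5.92% of all tested genes. The count at an unadjusted p under 0.05 in edgeR was 1, where 22.4% of all tested genes were, and the Wald test of DESeq2 called 1 higher, where it called 8.97% of all tested genes higher. The gamma tubulin gene Tubg1, which seeds microtubules at the centrosome, averaged 36.1 ± 1.92 CPM in LiKM and 39.96 ± 1.99 CPM in LiK. The delta tubulin gene Tubd1, known from centrioles, averaged 4.74 ± 1.31 CPM in LiKM and 5.01 ± 1.19 CPM in LiK. The gene behind both counts of 1 was Tuba8, an alpha tubulin known from muscle and testis, named after its values were seen. It had 3.71, 2.63 and 3.42 CPM in LiKM and 1.49, 0.956 and 1.97 CPM in LiK, and missed the threshold (adjusted p = 0.0819, edgeR quasi-likelihood). The epsilon tubulin gene Tube1 had 0.846, 1.63 and 1.74 CPM in LiKM and 0.819, 0.403 and 1.48 CPM in LiK, which overlapped, with a log2 fold change of 0.62 (SE 0.50). Among the untested genes, Tubb4a, a beta tubulin of the brain, had 19, 9 and 13 counts in LiKM and 5, 5 and 6 counts in LiK, and the second gamma tubulin gene, Tubg2, had 7, 7 and 11 counts in LiKM and 0, 2 and 3 counts in LiK. For Tuba8, Tubb4a and Tubg2 every LiKM liver lay above every LiK liver, as in 17.8% of all tested genes. For Tubg1 every LiKM liver lay below every LiK liver, as in 11.8% of all tested genes. Tubal3, not tested, lay below too, with 0 counts in each LiKM liver and 1 in each LiK liver. Tuba3b had no count in any liver.

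The machinery that folds, marks and seeds tubulin had 0 called genes in edgeR's quasi-likelihood test. Of all tested genes, 5.92% were called in either direction. The lists of this machinery are small, so the 0 is not read as an absence of change. At an unadjusted p under 0.05 in edgeR were 22.4% of all tested genes, and DESeq2 called 8.97% higher. These are the shares to set beside each count here. Newly made tubulin is folded by the CCT chaperonin, prefoldin and the tubulin cofactors, and all 23 of these genes were tested, with 2 at an unadjusted p under 0.05 and 0 called by DESeq2. Log2 fold changes of the folding genes ran between -0.30 and 0.35, with a median of -0.08. The chaperonin subunit Cct8 averaged 123 ± 5.49 CPM in LiKM and 134 ± 5.78 CPM in LiK, and the subunit Cct5 averaged 124 ± 5.78 CPM in LiKM and 132 ± 11.9 CPM in LiK. Ttc5, which reads nascent tubulin in autoregulation, had a log2 fold change of 0.30 (adjusted p = 0.377), and with Scaper and Cnot11 it made 3 tested genes, 0 of them at an unadjusted p under 0.05 or called by DESeq2. The table lists Cnot11 under its older symbol D1Bwg0212e. Of 20 tested genes that add or remove tubulin modifications, 2 were at an unadjusted p under 0.05 and 0 were called by DESeq2. Sirt2, a tubulin deacetylase, had a log2 fold change of -0.28 (adjusted p = 0.127), and Hdac6, another, had -0.0012. Of 20 tested nucleation genes, 5 were at an unadjusted p under 0.05 and DESeq2 called 3 higher, beside the 22.4% and 8.97% of all tested genes. These 3 were Haus8 and Haus5, of the augmin complex that branches microtubules, and the centrosome gene Cdk5rap2, with log2 fold changes of 0.97 (SE 0.24), 0.67 (SE 0.16) and 0.68 (SE 0.18). The fitted value was above 0 in 15 of the 20, where it was in 49.5% of all tested genes, and in 6 every LiKM liver lay above every LiK liver, beside 17.8%. The list's median was 0.19. Among the most abundant of them, Akap9, a Golgi and centrosome scaffold, had a log2 fold change of -0.21, and the gamma tubulin complex gene Tubgcp3 had 0.08.

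Of 34 tested genes that bind, sever or steer microtubules, 3 were called higher and 0 lower. Of all tested genes, 5.11% were called higher and 0.813% lower. Stmn1 encodes stathmin, which holds tubulin dimers and destabilises microtubules. It rose, with 20.6, 16.2 and 17.7 CPM in LiKM and 4.91, 4.18 and 6.53 CPM in LiK, a log2 fold change of 1.80 (SE 0.20, adjusted p = 0.0107 in edgeR's quasi-likelihood test). Fignl1, an AAA ATPase of the family of microtubule severing enzymes that also acts in DNA repair, had 4.18, 8.12 and 1.74 CPM in LiKM and 0.482, 0.453 and 0.616 CPM in LiK (adjusted p = 0.0310). Dclk1, a kinase that binds microtubules, had 14, 10 and 17 counts in LiKM and 0, 1 and 1 counts in LiK (adjusted p = 0.0217). For each of the 3 every LiKM liver lay above every LiK liver, as in 15 of the 34 genes and 17.8% of all tested genes. All 3 stayed called without LiKM 3, Stmn1 alone without LiKM 1, LiKM 2 or LiK 3, and 0 without LiK 1 or LiK 2, where the adjusted p of Stmn1 was 0.0532 and 0.0554. The median log2 fold change of the list was 0.29.

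The actin cytoskeleton, the other main filament system, was set beside the tubulins. Of 25 tested genes 4 rose, where 5.11% of all tested genes did, and 0 fell, where 0.813% did. At an unadjusted p under 0.05 were 12, where 22.4% of all tested genes were, with a median log2 fold change of 0.29. The actin binding protein gene Tagln2 had a log2 fold change of 1.27 (SE 0.17, adjusted p = 0.0170), and the cytoplasmic actin gene Actg1 had 1.25 (SE 0.23, adjusted p = 0.0310). Cotl1, which binds actin filaments, had 0.65 (SE 0.11, adjusted p = 0.0260), and the tropomyosin gene Tpm1 had 0.61 (SE 0.14, adjusted p = 0.0499). The Tpm1 call was lost with DESeq2 size factors (adjusted p = 0.0526), upper quartile scaling (0.0512) and no filter (0.0506) in edgeR's quasi-likelihood test, and without any 1 of the 6 livers. Without LiKM 1 the list had 2 calls, Tagln2 and Myh9, the second of which was not among the 4. Of the 4, 0 stayed called without LiKM 2, LiK 1 or LiK 2, 3 without LiKM 3 and 1 without LiK 3.

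**Figure D5:**
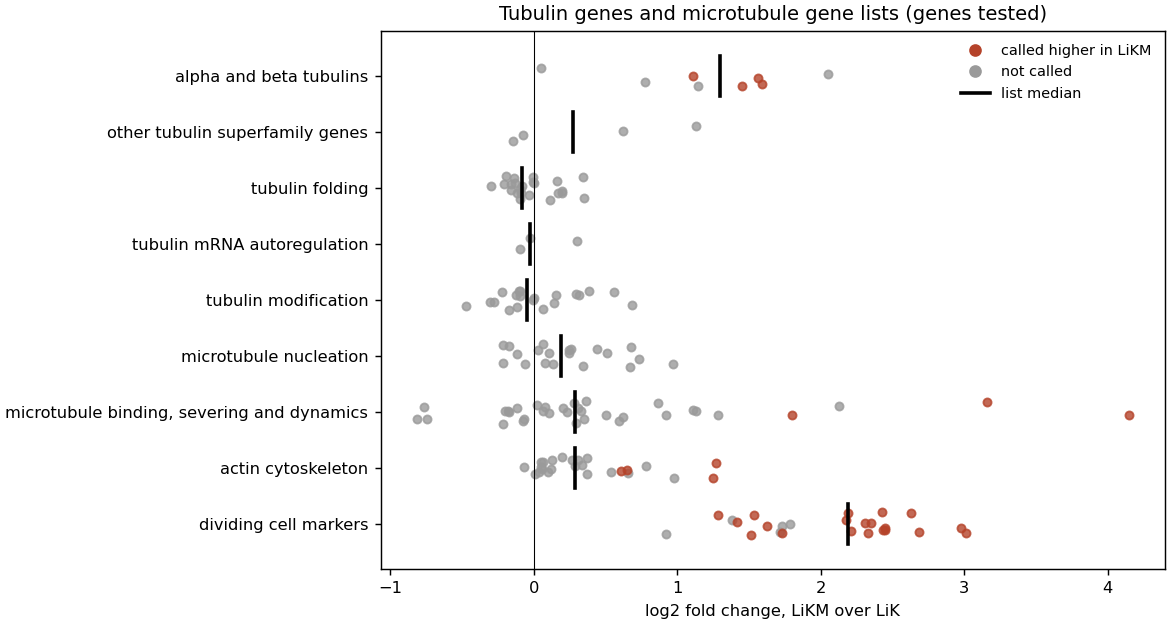
Log2 fold change, LiKM over LiK, of each tested gene of the tubulin, microtubule, actin and dividing cell lists, with list medians as bars and called genes in red. The folding genes lie between -0.30 and 0.35, while the 8 tested tubulins have a median of 1.30 and the dividing cell markers one of 2.19.

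Markers of dividing cells and of some cell types other than hepatocytes were also higher in LiKM than in LiK, though their order among the LiKM livers differed. The 25 dividing cell markers summed to 132, 142 and 195 CPM in LiKM and 40.5, 25.1 and 45.8 CPM in LiK, and 20 of them rose, where 5.11% of all tested genes did, the share to set beside each count of markers called higher here. Macrophage and monocyte markers summed to 551, 596 and 446 CPM in LiKM and 298, 363 and 278 CPM in LiK, with 7 of 14 called higher. Stellate cell and fibroblast markers summed to 855, 832 and 802 CPM in LiKM and 326, 359 and 544 CPM in LiK, with 4 of 14 called higher. Among the LiKM livers, LiKM 3 had the highest tubulin sum, at 862 CPM, and the highest dividing cell sum. It had the lowest macrophage and stellate cell sums. T and natural killer cell markers summed to 16.4 to 22.5 CPM in LiKM and 4.19 to 7.46 CPM in LiK, with 9 of 11 tested called higher. Cholangiocyte and progenitor markers summed to 115, 217 and 248 CPM in LiKM and 256, 107 and 87.9 CPM in LiK, with 1 of 10 tested called. Of 12 endothelial, 6 B cell and 5 platelet or red cell markers tested, edgeR and DESeq2 called 0. At an unadjusted p under 0.05 in edgeR were 4, 0 and 1, where 22.4% of all tested genes were. The 20 dividing cell calls became 12, 1 and 13 without LiKM 1, 2 and 3, and 3, 1 and 9 without LiK 1, 2 and 3. Over the same 6 fits the calls ranged between 0 and 5 for macrophages and for stellate cells, and between 0 and 8 for T and natural killer cells. The part of these cells in the tubulin levels was not tested.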

How the data were processed

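Per the labels' protocols, libraries were made with a stranded kit selecting messenger RNA, and per the submitters' processing notes reads were counted with featureCounts and checked with FastQC 0.11.7. The authors deposited raw counts per gene symbol, whole numbers that were not normalised. Not given in the sources used here are the aligner, genome build, annotation, strand setting and treatment of multiply mapping reads.

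The members and gene lists were chosen with earlier results of these data known. Genes were kept by edgeR 4.0.16's default filter (a count of about 10 in 3 libraries and 15 in total), scaled by TMM and fitted with the quasi-likelihood test in R 4.3.3, genotype being the only term. Standard errors came from the coefficient and its F statistic. The 6 mice have separate codes and were treated as separate animals. What the 2 genotypes share is not reported here. Within a genotype, the chi-square per gene between libraries was 34.5 to 119, above sampling noise. Of 297 distinct list genes, 295 had a row, 22 of them through another symbol.

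Genes to be named were all 10 tubulins, up to 4 called genes of each pathway list by adjusted p or else the 2 most abundant, the 2 most abundant tested markers of each cell type, and the 5 genes most like the tubulin sum, Tubb4b and Tuba4a. Of the markers that this rule picked, Alb is given with its values, and the others only within list sums, counts of calls or both. Mdm2, Nefl, Tuba8, Tubb4a, Tubg2, Tube1, Tuba3b, Tubal3, Haus5, Haus8, Cdk5rap2, Myh9, Atat1, Scaper, Cnot11 and the genes most like Tubb2a were named after their values were seen. Protein identities were planned, and identities of coding sequences are given in their place. Windows and lengths came from GENCODE M21 on GRCm38, over 141767 transcripts, and promoters from RefSeq on GRCm38.p6, with 8 of 10 tubulins matched. These builds may differ from that of the deposited counts. For levels per kilobase, the CPM of a gene was divided by the length of its main coding transcript.

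On simulated counts for this comparison (13411 genes, 200 changed) edgeR found 60 of 100 2-fold changes and all 100 of the 4-fold ones, and called 7 of the 13211 genes left unchanged. Every simulated gene had the same biological variation, a coefficient of 22.3%, and scarce genes were not among those changed. The rates need not hold for genes that vary more between livers, such as Tubb2a, or for scarce ones, such as Tuba1a. Alternatives were other scalings and filters, the Wald test of DESeq2 1.42.0, voom with quality weights in limma 3.58.1, a block for the replicate number, and fits without each library in turn.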

Additional observations from a re-analysis of the deposited data

How the results depend on the processing

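The 4 tubulins called became 4 or 5 under the other scalings, filters and tests, with Tuba1c the gene added, and 1 to 4 when 1 library was left out. The log2 fold change of Tuba4a was -0.071 in limma-voom with sample weights, and with 1 library left out it lay between -0.19 (without LiKM 3) and 0.12. Of the 8 tested tubulins it was the one whose sign changed. The cause was not tested. Over all genes, 802 were called, against 1591 by the Wald test of DESeq2, 1323 by limma-voom and 19 to 626 with 1 library left out. The share of calls that were higher was 86.3%, 94.3% with scaling to library totals and 76.3% in the Wald test. Scaling to library totals moved the median log2 fold change of all genes to 0.16. The titles number the mice 1 to 3 in each genotype, but correlations of same-numbered deviations were 0.260, -0.0045 and 0.117, so the numbers were not taken as pairs. LiKM 1 and LiKM 3 each correlated best with the LiK liver of the same number, and LiKM 2 correlated best with LiK 3, at 0.0437. With the replicate number as a block, 835 genes and 5 tubulins were called.

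Among the lists, other tubulins had 1 call in the Wald test and 1 in limma-voom. Nucleation genes had 1 with upper quartile scaling, 3 with library totals, 3 in the Wald test and 2 in limma-voom. Binding and severing genes had 6 of 34 in the Wald test, 5 higher and 1 lower. Actin genes had 9 of 25 with library totals, 7 of 25 in the Wald test and 3 with DESeq2 size factors, upper quartile scaling or no filter. Of all 13537 tested genes, the Wald test called 1591, limma-voom 1323, library totals 1102, upper quartile scaling 804 and DESeq2 size factors 756. Without a filter 852 of 20273 were called. These are the counts to set beside those of the lists. With 1 library left out the calls were 0 to 1 for modification, 0 to 3 for binding and severing and 0 to 3 for actin genes. Per kilobase, Tuba4a gave 80.6% of alpha tubulin in LiKM and 88.7% in LiK, and Tubb4b gave 66.8% of beta tubulin in LiK. Tubb2b and Tubb3 lay under the filter and were too scarce to compare at this depth. The largest 95% interval of an isotype share reached 1.77 points to either side, for counting error only.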

Other observations

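Atat1, which acetylates alpha tubulin inside the microtubule, had 8.50, 10.6 and 22.9 CPM in LiKM and 19.1, 19.6 and 19.4 CPM in LiK. LiKM 1 and LiKM 2 lay below every LiK liver, and LiKM 3 lay above them all, as they did for Tuba4a. With all 6 livers its log2 fold change was -0.47 (SE 0.34, adjusted p = 0.464 in edgeR's quasi-likelihood test). Without LiKM 3 it was -1.04 (SE 0.14, adjusted p = 0.0187). With any of the other 5 livers left out, the adjusted p lay between 0.528 and 0.69. The gene was named after its values were seen.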
